A study of Homo sapiens with 4 samples.

Results

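The genes of the E2F transcription factors and of the pocket proteins that bind them were followed in the HCT-116 dicer- line, colon carcinoma cells of human origin in which Dicer, the nuclease that makes mature microRNAs, is altered. The set was chosen by name: E2F1 to E2F8, RBL1 and RBL2, which makes 10 of the 19798 genes that had a probe set to themselves. Every such probe set was kept, 17 in all. Each group was collected 24 h after transfection: 1 array after 10 nM of miR-124 as a duplex with a guide strand in segments (G10.12/P), 1 array after 10 nM of the duplex with its guide strand intact (G/P), and 2 arrays after mock transfection. miR-124 is a microRNA of neurons, and microRNAs lower messenger RNAs that pair with their seed. All 4 were of the same dicer- line, and no array of cells with unaltered Dicer was analysed here. The series asks whether seed-based activity of a microRNA persists when its guide strand is segmented.

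E2F proteins bind short GC-rich sites in the promoters of genes for DNA replication and cell division. E2F1, E2F2 and E2F3 activate these genes at the passage into S phase, while E2F4 and E2F5 act mainly as repressors together with pocket proteins, E2F6 represses together with Polycomb proteins, and the atypical E2F7 and E2F8 repress without a pocket protein or a DP partner. RBL1 and RBL2 are relatives of the retinoblastoma protein. When not phosphorylated by cyclin-dependent kinases they hold E2Fs in repressing complexes, RBL2 chiefly in resting cells and RBL1 in cycling cells. Several E2F genes and RBL1 are themselves known E2F targets.

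The promoters of E2F1, E2F2 and RBL1 are shown because these genes are known E2F targets and were lower together with the intact duplex, as described below. Each runs from 250 bases before to 50 bases after the start of transcription, 5′ to 3′ on the strand of the gene, from RefSeq on GRCh38.p14. They are chr20:33686336-33686635 for E2F1, chr1:23531184-23531483 for E2F2 and chr20:37095948-37096247 for RBL1, all on the minus strand. Capitals mark an E2F core word on either strand, which is any of 4 words of 7 letters. These are the word TTCCCGC, then the word TTCGCGC, then the word TTGCCGC and at last the word TTGGCGC.
E2F1: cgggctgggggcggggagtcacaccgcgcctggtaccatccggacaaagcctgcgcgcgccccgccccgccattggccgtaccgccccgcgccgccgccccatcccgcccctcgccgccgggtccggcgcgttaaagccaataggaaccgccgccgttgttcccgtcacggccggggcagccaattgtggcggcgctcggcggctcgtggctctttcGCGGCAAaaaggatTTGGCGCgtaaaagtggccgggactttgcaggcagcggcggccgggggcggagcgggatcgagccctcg
E2F2: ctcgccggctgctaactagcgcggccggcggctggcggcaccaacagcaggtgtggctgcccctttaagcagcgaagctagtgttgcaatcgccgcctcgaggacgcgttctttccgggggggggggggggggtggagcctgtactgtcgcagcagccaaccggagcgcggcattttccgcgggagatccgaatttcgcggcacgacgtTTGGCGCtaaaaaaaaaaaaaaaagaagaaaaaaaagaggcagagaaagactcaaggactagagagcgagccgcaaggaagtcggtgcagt
RBL1: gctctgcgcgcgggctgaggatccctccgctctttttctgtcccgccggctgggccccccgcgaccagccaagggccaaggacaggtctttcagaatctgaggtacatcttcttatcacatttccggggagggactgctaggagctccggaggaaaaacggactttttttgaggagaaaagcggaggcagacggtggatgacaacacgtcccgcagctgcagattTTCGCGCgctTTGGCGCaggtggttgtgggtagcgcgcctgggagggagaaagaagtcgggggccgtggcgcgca

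The E2F1 window held a core word on the opposite strand from -33 to -27 and another from -19 to -13, counted from the start site with the first transcribed base as 1. The E2F2 window held 1, from -41 to -35, and the RBL1 window 2, from -25 to -19 and from -15 to -9. The promoter table had an entry for 8 of the 10 genes, not for E2F5 and E2F8. In 6 of these 8 genes, or 75%, at least 1 window held a core word, against 15.3% of the 27305 genes in the table. E2F3, E2F6 and E2F7 had a core word too, and E2F4 and RBL2 had none. The cell cycle homology letters TTTGAA, which overlapped no core word in these windows, stood in the windows of E2F3 and RBL2, and in those of 18.2% of all genes. These matches describe the letters of the windows and are not evidence of binding.

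With the intact duplex 5 of the 10 genes fell against mock, 0 rose and 5 did not pass the test. Those that fell were the activators E2F1 and E2F2, the repressor E2F5, the atypical E2F8 and the pocket protein gene RBL1, by factors between 1.84 and 5.15. With the segmented duplex 2 of the 10 fell, E2F1 and E2F8, by factors of 1.78 and 1.87, 0 rose and 8 did not pass. The test was limma on log2 intensities, with p-values adjusted by Benjamini-Hochberg over all 19798 genes and a threshold of 0.05. The background was 24.9% of all genes past the test with the intact duplex, 10.4% lower and 14.5% higher, and 5.99% with the segmented duplex, 2.68% lower and 3.31% higher. Each duplex has 1 array, so the test takes its spread from the mock pair and assumes that a lone treated array varies as the mock arrays do. The labels do not say whether separate cultures were used for the mock arrays, so the spread behind the p-values may be technical.

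**Figure D1:**
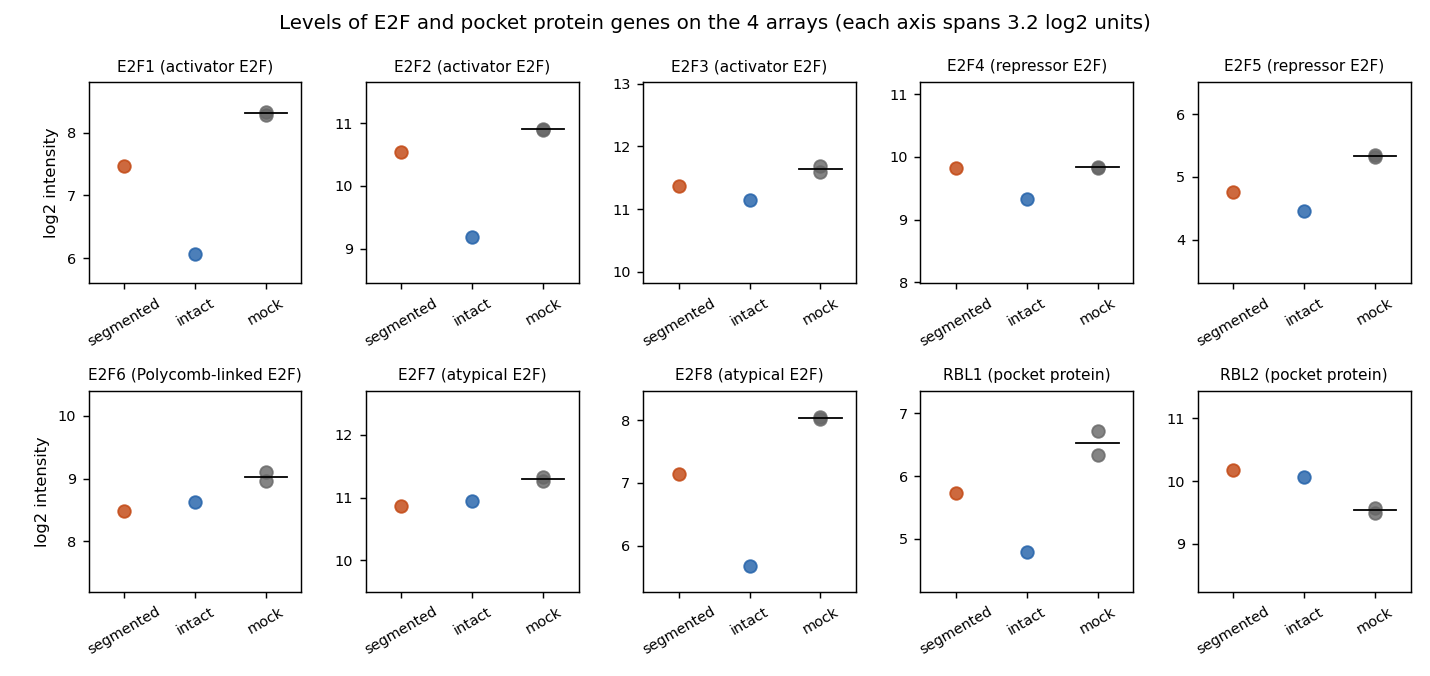
Log2 intensity of the brightest probe set of each gene (vertical axis) on the segmented, the intact and the 2 mock arrays, with the mock mean as a line. E2F1, E2F2, E2F8 and RBL1 show the intact array well under the segmented array, which lies under both mock arrays, and in RBL2 both duplex arrays lie above both mock arrays.

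E2F1, the E2F best known for driving entry into S phase, had a log2 level of 7.47 with the segmented duplex, 6.07 with the intact duplex and 8.28 and 8.33 on the mock arrays. As intensities these are 177.7, 67.3, 312 and 322. Both duplex arrays lay under both mock arrays, and the intact array was the lowest. E2F1 fell by 2.23 on the log2 scale with the intact duplex (limma SE 0.12, adjusted p = 0.00822) and by 0.83 with the segmented duplex (limma SE 0.12, adjusted p = 0.0484). E2F2, an activator with the same kind of DNA-binding domain, stood at 10.53 with the segmented duplex, 9.19 with the intact duplex, and 10.91 and 10.89 on the mock arrays. The segmented array was thus only a little under mock, and the intact array stood apart. E2F2 fell by 1.71 with the intact duplex (limma adjusted p = 0.00856), whereas its difference of -0.37 with the segmented duplex did not pass (limma adjusted p = 0.161).

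E2F3, the remaining activator, had 11.37 with the segmented duplex, 11.15 with the intact duplex and 11.59 and 11.69 on the mock arrays. Both duplex arrays lay under both mock arrays. Its differences of -0.27 and -0.49 did not pass, with limma adjusted p-values of 0.282 for the segmented and 0.0665 for the intact duplex. A dimmer probe set of E2F3 stood further from mock with the intact duplex, at -0.85, and passed when all 52377 probe sets were tested one by one (limma adjusted p = 0.0327). With the segmented duplex that probe set stood at -0.83 (limma adjusted p = 0.0766).

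Among the repressors, E2F5 had 4.76 with the segmented duplex, 4.46 with the intact duplex and 5.31 and 5.36 on the mock arrays. E2F5 fell by 0.88 with the intact duplex (limma adjusted p = 0.0184), and its difference of -0.58 with the segmented duplex did not pass (limma adjusted p = 0.0792). Its probe set lay below the median level of all genes (log2 6.76) on every array, and no detection call was used here, so its level over background is not known. E2F4, the E2F that carries most pocket protein complexes in resting cells, had 9.82 with the segmented duplex, 9.33 with the intact duplex, and 9.85 and 9.83 on the mock arrays. The segmented array was close to mock, with a difference of -0.02 (limma 95% interval -0.35 to 0.32). The intact array was the lowest, and its difference of -0.51 missed the threshold (limma adjusted p = 0.0552).

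E2F6, the Polycomb-linked repressor, had 8.48 with the segmented duplex, 8.63 with the intact duplex and 9.11 and 8.96 on the mock arrays. The differences, -0.55 and -0.40, did not pass (limma adjusted p = 0.103 and 0.115). Its dimmer probe set gave another order, with 7.98 on the segmented array, 7.27 on the intact array and 8.54 and 8.49 on the mock arrays. The dimmer one was lower with the intact duplex by a difference of -1.24 that passed over all probe sets (limma adjusted p = 0.0158), and stood at -0.53 with the segmented duplex (limma adjusted p = 0.135). The probe sets of E2F6 thus agreed in sign against mock and disagreed in which duplex array was lower.

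Of the atypical pair, E2F8 fell with both duplexes and E2F7 passed with neither. E2F8 had 7.14 with the segmented duplex, 5.67 with the intact duplex, and 8.02 and 8.06 on the mock arrays. It fell by 2.37 with the intact duplex, a 5.15-fold difference (limma SE 0.12, adjusted p = 0.00822), and by 0.90 with the segmented duplex (limma SE 0.12, adjusted p = 0.0437). E2F7, its closest relative in structure, had 10.86 with the segmented duplex, 10.95 with the intact duplex and 11.26 and 11.33 on the mock arrays. Its differences of -0.44 and -0.34 did not pass (limma adjusted p = 0.128 and 0.13). The difference between E2F8 and E2F7 in their changes was not tested.

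**Figure D2:**
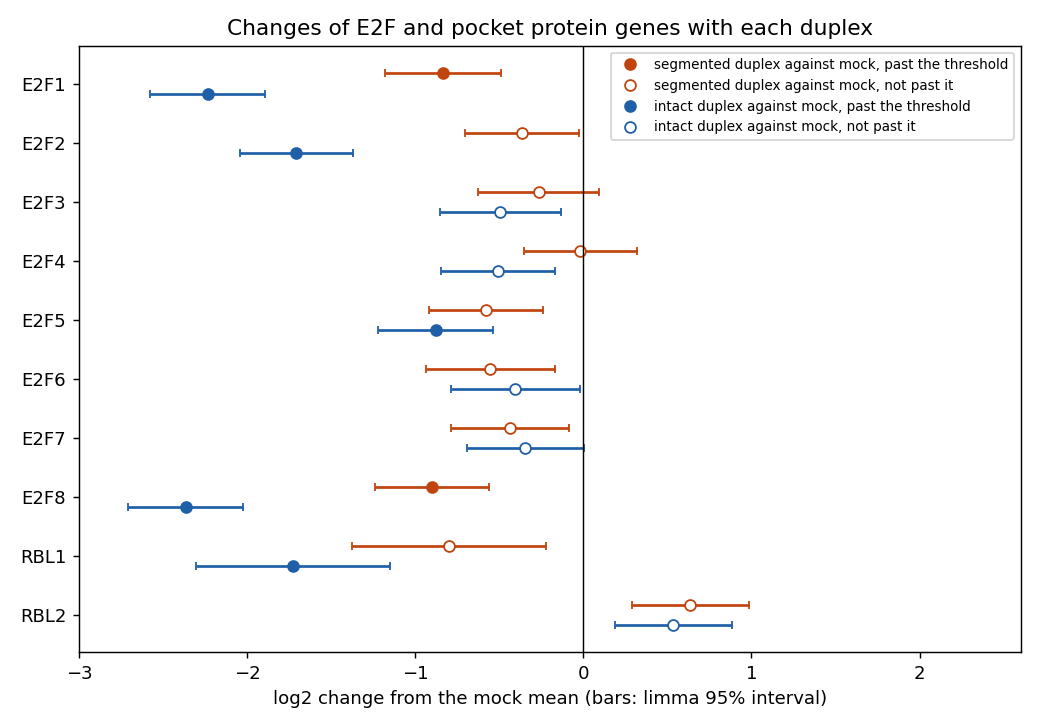
Log2 change from the mock mean (horizontal axis) of each gene with the segmented (upper) and intact (lower) duplex, with limma 95% intervals; filled points passed the threshold. All points but those of RBL2 lie below 0, and the intervals of the intact and segmented duplex are apart for E2F1, E2F2 and E2F8.

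The pocket protein genes stood on opposite sides of mock. RBL1 had 5.73 with the segmented duplex, 4.80 with the intact duplex, and 6.72 and 6.34 on the mock arrays, which differed more between themselves than those of any other gene of the set. RBL1 fell by 1.73 with the intact duplex (limma SE 0.21, adjusted p = 0.0141), and its difference of -0.80 with the segmented duplex did not pass (limma adjusted p = 0.108). RBL2, the pocket protein gene of resting cells, had 10.17 with the segmented duplex, 10.07 with the intact duplex, and 9.50 and 9.57 on the mock arrays. Both duplex arrays lay above both mock arrays. Neither difference passed: it was 0.64 for the segmented duplex (limma adjusted p = 0.0706) and 0.54 for the intact duplex (limma adjusted p = 0.0519).

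RBL1 was measured by 4 probe sets and RBL2 by 3, which share their target RNA and are not replicates. All 4 probe sets of RBL1 passed with the intact duplex over all 52377 probe sets, with log2 changes from -2.10 to -1.71. With the segmented duplex they stood between -1.29 and -0.80, and none passed. All 4 lay below the median level of all genes. A dimmer probe set of RBL2 had 7.08 with the segmented duplex, 7.24 with the intact duplex and 6.67 and 6.77 on the mock arrays, and did not pass either. The dimmest probe set of RBL2, also the dimmest of the 17, had 2.54 with the segmented and 2.55 with the intact duplex, between the mock arrays at 2.75 and 2.25. Over all probe sets of the 10 genes, 10 of 17 were lower with the intact duplex and 0 of 17 with the segmented duplex, beside 7.95% and 0.863% of all probe sets lower in the same test.

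**Figure D3:**
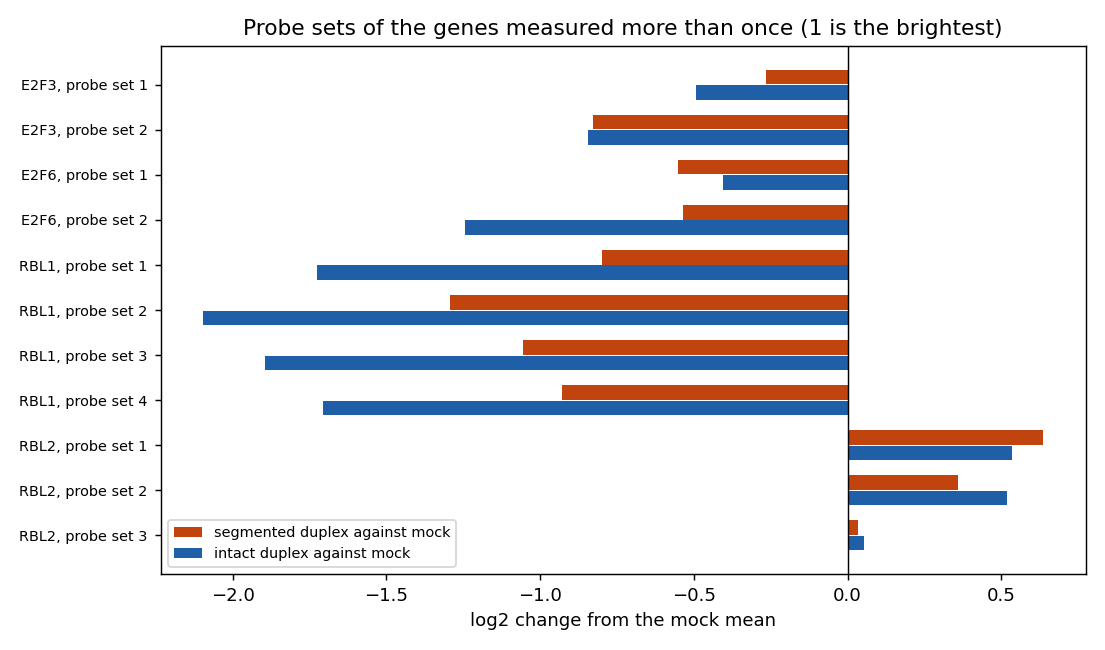
Log2 change from the mock mean (horizontal axis) of every probe set of E2F3, E2F6, RBL1 and RBL2, numbered by brightness, with the segmented (upper bar) and the intact (lower bar) duplex. The 4 RBL1 probe sets lie between -1.29 and -0.80 with the segmented duplex and between -2.10 and -1.71 with the intact duplex, and the dimmest RBL2 probe set lies near 0.

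As a set, 9 of the 10 genes lay below both mock arrays on the segmented array and 9 on the intact array, against 37.5% and 39.8% of all genes. RBL2 was the one above both, where 42% of all genes lay with the segmented and 44% with the intact duplex. At least 1.5-fold below both mock arrays were 3 of the 10 with the segmented duplex (4.89% of all genes), namely E2F1, E2F8 and RBL1, and 5 of the 10 with the intact duplex (9.52% of all genes). At least 1.5-fold above both mock arrays were 1 of the 10 with the segmented duplex, RBL2 (7.37% of all genes), and 0 of the 10 with the intact duplex (13.7% of all genes). The median log2 change of the 10 genes was -0.49 with the segmented and -0.69 with the intact duplex, beside 0.01 and 0.02 over all genes. Both comparisons use the same mock arrays. The mock arrays themselves differed by 0.01 to 0.38 on the log2 scale in these genes, with a median of 0.06. In RNA from a whole culture, fewer cells that express a gene and less RNA per cell cannot be told apart.

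Set directly against each other, the arrays of the segmented and the intact duplex stood furthest apart for E2F8, E2F1 and E2F2. E2F8 was 2.76-fold higher with the segmented than with the intact duplex (log2 difference 1.47, limma 95% interval 1.07 to 1.86), E2F1 2.64-fold higher (1.40, interval 1.00 to 1.80) and E2F2 2.54-fold higher (1.34, interval 0.95 to 1.73). RBL1 (0.93, interval 0.26 to 1.59) and E2F4 (0.49, interval 0.10 to 0.88) were the other genes with intervals above 0. None passed after adjustment, with a limma adjusted p of 0.181 for E2F1, E2F2 and E2F8, and limma called 0 of all 19798 genes. At an unadjusted p below 0.05, 5 of the 10 were called, all higher with the segmented duplex, beside 16.5% of all genes called and 8.31% called higher. With the dimmest 40% of genes left out, or with a prior variance that followed the level, these 5 passed after adjustment as higher. In these fits 8.68% of the 11879 genes kept and 6.82% of the 19798 genes passed as higher.

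For the other 5 genes the intervals, each of the brightest probe set, held 0. The differences, segmented minus intact, were 0.30 for E2F5 (interval -0.09 to 0.69), 0.23 for E2F3 (-0.19 to 0.64), 0.10 for RBL2 (-0.30 to 0.50), -0.09 for E2F7 (-0.49 to 0.31) and -0.15 for E2F6 (-0.59 to 0.30). Differences of the size seen for E2F8, E2F1 and E2F2 lie outside each of these intervals, and smaller ones lie inside.

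The genes most like E2F8, the member with the furthest change, were sought among 9898 other genes above the median level, by the Euclidean distance of their log2 changes from the mock mean over the 4 arrays. The closest were the integrin gene ITGB1 (distance 0.13), DDIAS (0.13) and E2F1 itself (0.15). ITGB1 stood at -0.93 with the segmented and -2.49 with the intact duplex, and DDIAS at -0.83 and -2.32.

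Genes that E2Fs switch on for S phase fell broadly with the intact duplex. As background for this list and those below, 10.4% of all genes fell and 14.5% rose with the intact duplex. With the segmented duplex 2.68% fell and 3.31% rose. Of 31 measured genes on a list of G1/S targets, which include the MCM helicase genes and other genes of replication, 9 fell with the segmented duplex, 0 rose and 22 did not pass, and 27 fell with the intact duplex, 0 rose and 4 did not pass. The medians were -0.58 and -1.12. DTL, a subunit of the ubiquitin ligase that clears licensing factors in S phase, stood at log2 9.17 with the segmented duplex, 7.23 with the intact duplex and 10.89 and 10.95 on the mock arrays. Its log2 changes were -1.75 with the segmented and -3.69 with the intact duplex. Those of MCM10, a replication initiation factor, were -1.96 and -3.58, those of GINS2, a helicase subunit, -1.47 and -2.84, and those of the phosphatase gene CDC25A -1.10 and -2.72. CCNE2, the gene of a cyclin that starts S phase, fell by 3.22 with the intact duplex, and its difference of -1.01 with the segmented duplex did not pass (limma adjusted p = 0.0521). A core word stood in the promoter windows of 25 of the 30 listed genes with an entry, or 83.3%.

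G2/M genes, which the DREAM complex of E2F4, a pocket protein and the MuvB core holds down in resting cells, mostly did not pass after adjustment. Of 23 measured, 0 passed with the segmented duplex in the limma test (5 at an unadjusted p below 0.05, beside 27.4% of all genes). With the intact duplex 5 fell and 1 rose, 15 had an unadjusted limma p below 0.05, and 19 of the 23 lay below the mock mean. The shares of all genes at an unadjusted p below 0.05 and below the mock mean were not formed for the intact duplex. Those counts thus have no background beside them and were not read as a result about the list. The medians were -0.01 with the segmented and -0.38 with the intact duplex, beside 0.01 and 0.02 over all genes. The spindle checkpoint kinase gene BUB1B fell by 1.35 with the intact duplex, the cyclin gene CCNA2 by 1.22, BIRC5 of the chromosomal passenger complex by 1.03 and the spindle kinase gene AURKA by 0.82. BUB1B stood at -0.22 and CCNA2 at -0.36 with the segmented duplex. NEK2, a centrosome kinase gene, was the 1 that rose, by 0.60, and was singled out after its value was seen. Core words stood in the windows of 4 of 18 listed genes (22.2%), and TTTGAA in those of 11 of 18 (61.1%), against 2 of 30 (6.67%) of the G1/S list.

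Upstream of the pocket proteins, kinases were lower and several kinase inhibitors higher with the intact duplex. There were 13 measured kinases, cyclins and inhibitors, which include CCNE1 and CCNE2 of the list above. With the segmented duplex 4 fell and 0 rose, beside 2.68% and 3.31% of all genes. With the intact duplex 5 fell and 4 rose, beside 10.4% and 14.5% of all genes. The medians were -0.37 and -0.12. CDK2, the partner kinase of E-type cyclins, changed by -1.49 with the segmented and by -3.33 with the intact duplex, and CDK4, the kinase of D-type cyclins, by -2.47 and -2.92. CDK6 changed by -1.23 and -1.58, and CCNE1 by -0.81 and -0.71. The inhibitor gene CDKN2D rose by 1.74 with the intact duplex, and stood at 0.77 with the segmented duplex (limma adjusted p = 0.0688).

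Partners of E2Fs in their complexes mostly did not pass. Of the DP genes, whose proteins pair with E2F1 to E2F6, TFDP2 stood at 0.13 with the segmented and 0.29 with the intact duplex and TFDP3 at -0.07 and -0.19, and TFDP1 had no probe set of its own. In the MuvB core and the activators that join it, 0 of 7 genes passed with the segmented duplex in the limma test. At an unadjusted p below 0.05 there were 0, beside 27.4% of all genes. With the intact duplex 3 of the 7 had an unadjusted limma p below 0.05, and 6 of the 7 lay below the mock mean. The shares of all genes for these counts were not formed, so they were not read as a result about the list. MYBL2, an activator and known E2F target, fell by 1.27 with the intact duplex (limma adjusted p = 0.0154). In the same comparison LIN54 stood at -0.42, LIN9 at -0.39, RBBP4 at -0.25, LIN52 at -0.24, FOXM1 at -0.03 and LIN37 at 0.24. LIN52 and TFDP3 lay below the median level of genes on all arrays, so their values say little. Of 11 Polycomb partners of E2F6, 0 passed with the segmented duplex, where 1 did unadjusted, beside 27.4% of all genes. RING1, a ubiquitin ligase, rose by 0.67 with the intact duplex. With the segmented duplex RING1 stood at 0.52 and PCGF6 at -0.12.

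Of 5 measured genes on a list of germline genes repressed through E2F6, 0 passed with the segmented duplex. Unadjusted there were 0 too, beside 27.4% of all genes. SLC25A31 rose by 1.90 with the intact duplex. With the segmented duplex SLC25A31 stood at 0.31 and DDX4 at 0.12. SLC25A31, DDX4, SMC1B and MAEL lay below the median level of genes on all arrays, so whether they pass says little. TUBB3, whose place among germline genes was not checked, lay above it. Among ubiquitin ligase subunits that act on E2Fs, SKP2 fell by 1.27 with the intact duplex and stood at -0.64 with the segmented duplex (limma adjusted p = 0.0672). FZR1 stood at 0.17 and 0.38 and CCNF at 0.14 and -0.01, and did not pass. Of 5 measured apoptosis genes that E2F1 can activate, 1 rose with the segmented duplex, BBC3 by 1.04. With the intact duplex BBC3 rose by 1.64, BCL2L11 by 1.62 and APAF1 by 1.40, and CASP8AP2 fell by 0.68. PMAIP1, the remaining measured gene, stood at -0.39 after the segmented and -0.02 after the intact duplex, past neither test.

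**Figure D4:**
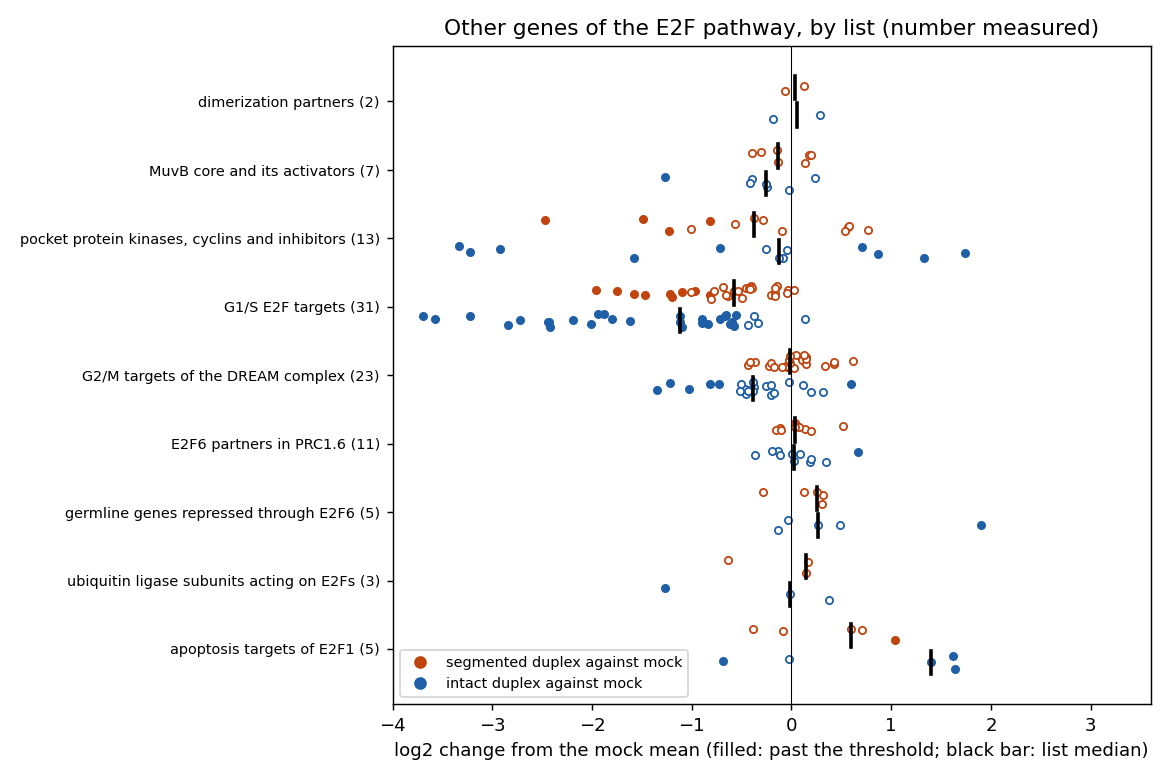
Log2 change from the mock mean (horizontal axis) of each measured gene of 9 lists with the segmented (upper row) and the intact (lower row) duplex; filled points passed the threshold and black bars are list medians. The G1/S targets lie furthest left, with medians of -0.58 and -1.12, and the E2F6 partners lie around 0.

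Most of the listed epithelial and colon markers read above the median level of genes on all arrays. Of 7 measured epithelial and colon genes, 6 lay above the median level of genes on every array, EPCAM at 13.05 with the segmented duplex, 13.05 with the intact duplex and 13.01 and 13.06 on the mock arrays, and VIL1 lay below it. With the segmented duplex 0 of the 7 passed (2 at an unadjusted p below 0.05, beside 27.4% of all genes). With the intact duplex 2 rose, CDH1 by 0.79 and CDX2 by 0.69, and 0 fell, beside 14.5% and 10.4% of all genes. KRT18 stood at -0.49 with the segmented and -0.52 with the intact duplex. Of 15 markers of other cell types 4 lay above that level on each array, namely COL1A1, ACTA2, ALB and SYT1. SYT1 stood at 10.61 with the segmented duplex, 10.57 with the intact duplex and 10.08 and 10.13 on the mock arrays. The summed intensity of the 15 was 2669 with the segmented duplex, 3421 with the intact duplex and 1982 and 1947 on the mock arrays. Of the 15, 3 rose and 1 fell after the intact duplex, beside 14.5% and 10.4% of all genes. With the segmented duplex 0 passed in the limma test (3 at an unadjusted p below 0.05, beside 27.4% of all genes). The counts of this list are thus near the shares over all genes. The lowest intensities on the arrays lay between 2.51 and 2.76, so no marker could read 0, and a low value does not show that a marker was expressed. The part of either marker list in the results above was not tested.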

How the data were processed

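The samples were 4 one-colour arrays of total RNA, which per the labels' protocols was amplified to biotin-labelled cRNA. The values as deposited are RMA intensities on a linear scale, per the submitters' processing notes, with no version given there. RMA corrects background, equalises the distributions of the arrays by quantiles and sums up the probes of a set, so a change shared by most genes is removed.

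The log2 of each intensity was taken without a pseudocount. Names came from the platform annotation, updated by Entrez identifier to RefSeq symbols of GRCh38.p14, which 35134 of the 35184 probe sets with 1 gene matched. A further 374 had several genes and 16819 were not listed, and these name no gene. The brightest probe set stood for a gene. The limma fit (3.58.1, R 4.3.3) had 1 mean per group, 1 residual and 2.89 prior degrees of freedom. Benjamini-Hochberg adjustment covered all 19798 genes, or all 52377 probe sets where single probe sets are tested. The fit was also run on simulated data in which all 4 arrays shared the same spread for a gene. Such data cannot check whether a lone treated array varies as the mock arrays do.

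The genes and the 9 pathway lists were chosen with earlier results of these data known. In each comparison with mock up to 4 genes of a list were named. These were those past its test with the largest change with the intact duplex, or the 2 with the largest such change where none passed. Short lists, the MuvB list, the ligase list and the apoptosis list were named whole. Promoter sequences came from RefSeq on GRCh38.p14. The alternatives were further quantile normalization, median centring, leaving out the dimmest 40% of genes, a trended robust prior, the mean of all probe sets, a fit over all probe sets, and leaving out either mock array. With so few arrays, the precision of all values is limited by their number.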

Additional observations from a re-analysis of the deposited data

How the results depend on the processing

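The signs of the 10 genes' changes against mock were kept under all alternatives except that of E2F4 with the segmented duplex, which was 0.0019 after a further quantile normalization. The counts of genes past the test depended on the fit. With the dimmest 40% of genes left out, 8 genes were lower with the intact duplex and 1, RBL2, higher. That setting also drops E2F5 from the test. For the same duplex the trended robust prior gave 9 lower and 1 higher, and the mean of all probe sets 8 lower. Median centring gave 7 lower, and a further quantile normalization 5 lower and 1 higher. With the segmented duplex 6 were lower and 1 higher with the dimmest genes left out. The trended robust prior gave 7 lower and 1 higher, and the mean of all probe sets 3 lower. When each probe set was fitted on its own, 0 were lower. E2F1 and E2F8 then had limma adjusted p-values of 0.071 and 0.0642. For the segmented against the intact duplex, 5 genes were higher both with the dimmest genes left out and with the trended robust prior. With the mean of all probe sets E2F6 turned to 0.28 and RBL2 to -0.025 in that comparison. The calls over all genes moved as well. With the dimmest genes left out 40.2% of those kept passed with the segmented and 58.5% with the intact duplex, and with the trended robust prior 27.4% and 39.4% of all genes, against 5.99% and 24.9% as reported. The cause was not tested.

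Without a mock array no residual degrees of freedom are left, so only differences were formed. The median change of the 10 genes was then -0.48 for the segmented duplex whichever was left out, and between -0.72 and -0.69 for the intact duplex. No paired analysis was possible because each duplex has 1 array. No detection call or probe-level signal was used here, which limits what E2F5, RBL1 and the dimmest RBL2 probe set can show.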
